A study of Mus musculus with 6 samples.

Results

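The writers and readers of methylated lysine 9 of histone H3 (H3K9) were followed across 6 microarrays of cardiomyocyte-enriched cell populations from C57BL/6J mice. The set was a list of 10 genes, taken by gene symbol with every one of their probes: the methyltransferases Ehmt1, Ehmt2, Setdb1, Suv39h1 and Suv39h2, the zinc finger partners Wiz and Zfp644, and the heterochromatin protein 1 (HP1) genes Cbx1, Cbx3 and Cbx5. Of these 10 genes, 8 had a probe under their symbol, with 22 of the 45281 probes on the array. Suv39h1 and Cbx1 were not analysed here. Of the 22 probes, 12 were above background on at least 2 of the 6 arrays, and they represented 7 of the 10538 genes tested.

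There were 3 groups of 2 arrays, described as biological replicates. TAC_BIX mice had transverse aortic constriction (TAC), a surgical narrowing of the aorta that loads the left ventricle, and received BIX-01294 for 1 week from osmotic pumps under the skin. TAC_DMSO mice had the same constriction and the vehicle DMSO. The sham mice had sham surgery, with neither drug nor vehicle named in the labels. All were C57BL/6J, and no genetic alteration is named. BIX-01294 inhibits the catalytic activity of Ehmt2 (G9a) and Ehmt1 (GLP). TAC_DMSO and sham differed in both surgery and vehicle, whose parts cannot be told apart. The 3 comparisons share arrays. The sources used here give neither the age and sex of the mice nor how many mice stand behind 1 array. The p-values therefore speak of the spread between these arrays, part of which may be technical.

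H3K9 methylation is a mark of silenced chromatin. Ehmt1 and Ehmt2 form a complex that places mono- and dimethylation in euchromatin, with Wiz and Zfp644 as zinc finger subunits that help bring it to its sites. Setdb1, which acts with the corepressor Trim28, and the Suv39h enzymes place trimethylation, on retroelements and on pericentromeric heterochromatin. HP1 proteins bind the di- and trimethylated lysine through their chromodomain and compact the chromatin; in heart muscle, H3K9 trimethylation and HP1 are best known for the silencing of cell cycle genes in adult cardiomyocytes.

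The promoters of Cbx3 and Cbx5 are shown because the differences called or nearest to a call among the members were in these 2 genes. Sequences are RefSeq's on GRCm38.p6, 300 bases from 250 before to 50 after an annotated start, 5′ to 3′ on the gene's strand. Capitals mark 3 motifs searched on both strands, GGGCGG (GC box), CCAAT and TTTNNCGC (E2F-type), and none of the matches overlaps another.
Cbx3, chr6:51470366-51470665, plus strand: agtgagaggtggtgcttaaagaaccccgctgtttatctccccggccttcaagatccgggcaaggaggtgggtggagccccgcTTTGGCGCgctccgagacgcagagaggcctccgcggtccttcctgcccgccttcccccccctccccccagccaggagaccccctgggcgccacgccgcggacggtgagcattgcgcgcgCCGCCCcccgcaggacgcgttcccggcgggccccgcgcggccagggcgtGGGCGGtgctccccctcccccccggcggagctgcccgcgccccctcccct
Cbx5, chr15:103239803-103240102, minus strand: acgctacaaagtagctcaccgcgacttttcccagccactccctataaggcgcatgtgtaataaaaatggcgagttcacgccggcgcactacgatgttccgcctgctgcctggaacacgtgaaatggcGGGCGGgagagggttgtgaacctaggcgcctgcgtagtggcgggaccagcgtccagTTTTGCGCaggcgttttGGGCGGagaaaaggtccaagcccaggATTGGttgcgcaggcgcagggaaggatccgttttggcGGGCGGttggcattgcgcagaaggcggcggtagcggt
Each gene has a second annotated window, not shown, with 32 CpG and none of these motifs for Cbx3, and with 8 CpG and 1 GC box for Cbx5. The Cbx3 window shown held 34 CpG dinucleotides and the Cbx5 window shown 29, against a median of 7 over 32841 windows of the same length. In these windows Cbx3 had 2 GC boxes and 1 E2F-type match, and Cbx5 had 3 GC boxes and 1 match each to CCAAT and the E2F-type motif. GGGCGG occurred in 35.7% of all windows, CCAAT in 37.4% and TTTNNCGC in 5.17%; a match describes the letters and is not evidence of binding.

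The arrays detected 36.7% to 40.9% of the probes, with 39.9% and 40.9% in TAC_BIX, 40.2% and 37.8% in TAC_DMSO, and 36.7% and 37.2% in sham. Replicate arrays correlated across all probes with r between 0.988 and 0.992, and arrays of different groups between 0.974 and 0.989. Of 12 cardiomyocyte markers 11 had a probe, and all 11 were detected on all 6 arrays. Markers of fibroblasts, endothelium and leukocytes were detected as well, so detection does not measure the enrichment. In these bulk samples, fewer cells of a type and less RNA per cell cannot be told apart. Levels below are log2 signals after background correction and quantile normalization, a difference is the group named first less the other, on that scale, with the model's standard error (SE), and a gene is called at an adjusted p (limma, Benjamini-Hochberg over all 10538 genes) under 0.05.

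Among the members, 1 difference passed the test at the gene level: Cbx3 was higher in TAC_BIX than in sham. In TAC_BIX against TAC_DMSO, 0 of the 7 members were called, and 0% of all genes were; 2 members had an unadjusted p under 0.05, against 19.8% of all genes. In TAC_BIX against sham, 1 of 7 was called, where 6.65% of all genes were; 2 members had an unadjusted p under 0.05, against 26.4% of all genes. In TAC_DMSO against sham, 0 of 7 were called, where 0.408% of all genes were; 3 members had an unadjusted p under 0.05, against 22.4% of all genes. The groups did not overlap for 6, 4 and 6 of the 7 members in the same order of comparisons, where 51.7%, 58.4% and 53.8% of all genes did not overlap. Both counts of 6 include Ehmt1, which lay at the floor and passed the filter only through the constricted arrays. Its order therefore ranks values near background. The median difference of the 7 members was 0.24 in TAC_BIX against TAC_DMSO (all genes 0.03), 0.18 in TAC_BIX against sham (all genes -0.0036) and 0.03 in TAC_DMSO against sham (all genes -0.01).

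**Figure D1:**
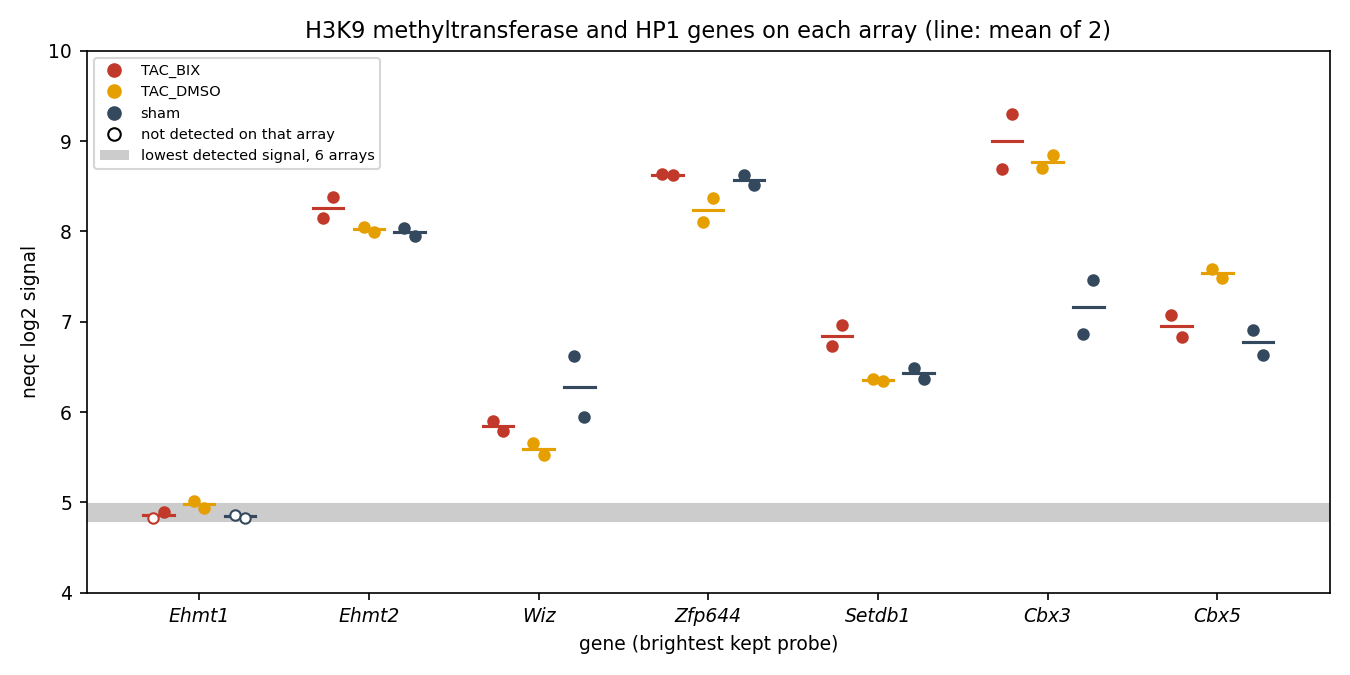
Normalized log2 signal of the brightest kept probe of each of the 7 genes tested; each point is 1 array, the line is the mean of 2 arrays, open points were not detected, and the grey band spans the lowest detected signal of the 6 arrays (4.80 to 4.99). Cbx3 was high on all 4 constricted arrays and low in sham, Cbx5 was highest in TAC_DMSO, and Ehmt1 lay between 4.83 and 5.02, in or just above the band; heights of different probes cannot be set against each other.

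Detection came first, since it decides which members can be read at all. The lowest signal called detected was 4.80 to 4.99 on the log2 scale, depending on the array. Of the 22 probes, 8 were detected on all 6 arrays, 1 on 5, 1 on 4, 2 on 3, 1 on 1 and 9 on none. The 10 probes not kept ranged between 4.23 and 5.00.

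Suv39h2, a trimethylase of pericentromeric heterochromatin, was at the floor. Its 4 probes gave 1 detected value among 24, on sham replicate 2, and ranged between 4.23 and 5.00. No difference of Suv39h2 between groups could be read at this signal. Ehmt1, the GLP subunit that BIX-01294 inhibits, had 2 probes and was also at the floor. Its kept probe ILMN_2757855 measured 4.83 and 4.90 in TAC_BIX, 5.02 and 4.94 in TAC_DMSO, and 4.86 and 4.83 in sham. It was detected on 1 TAC_BIX array, both TAC_DMSO arrays and neither sham array, so it passed the detection filter only through the constricted hearts and its sham level is a bound. The difference was -0.11 ± 0.16 (SE) in TAC_BIX against TAC_DMSO (adjusted p = 0.742). Its second probe, ILMN_2633604, was detected on none of the arrays.

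**Figure D2:**
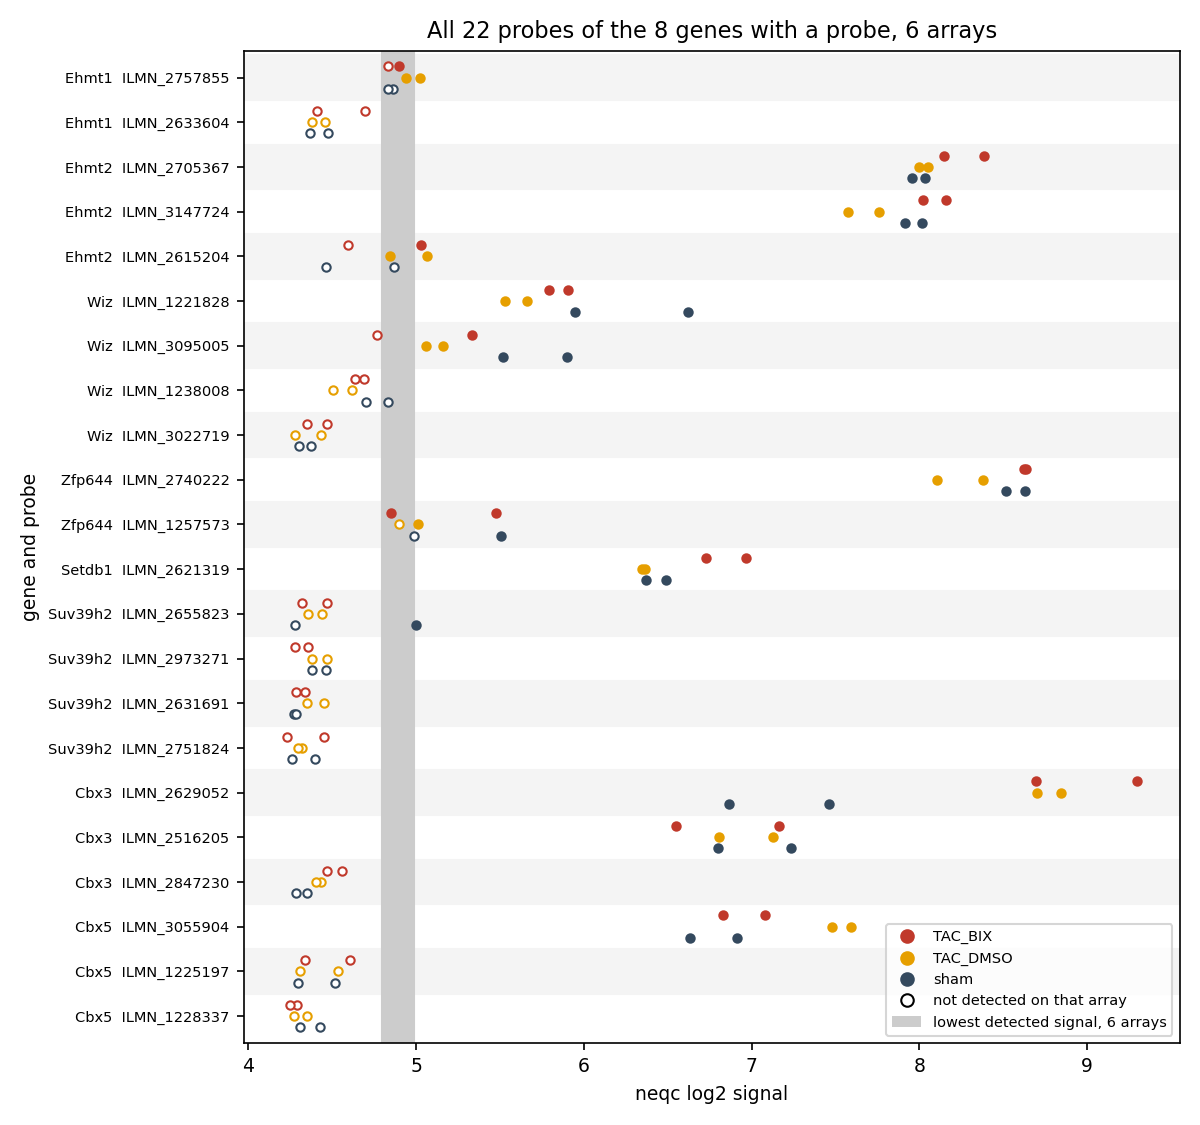
Normalized log2 signal of all 22 probes of the 8 genes with a probe; each point is 1 array, groups are stacked with TAC_BIX above TAC_DMSO above sham, open points were not detected on that array, and the grey band spans the lowest detected signals (4.80 to 4.99). All 4 Suv39h2 probes, 1 of 3 Cbx3 probes, 2 of 3 Cbx5 probes, 2 of 4 Wiz probes and 1 of 2 Ehmt1 probes were not kept.

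Ehmt2 encodes G9a, the main target of BIX-01294. Its brightest probe, ILMN_2705367, measured 8.14 and 8.38 in TAC_BIX, 8.05 and 8.0 in TAC_DMSO, and 8.04 and 7.95 in sham. The TAC_BIX arrays lay above all others, while TAC_DMSO and sham overlapped. The difference was 0.24 ± 0.17 in TAC_BIX against TAC_DMSO (95% interval -0.16 to 0.64, adjusted p = 0.478), 0.27 ± 0.17 in TAC_BIX against sham (adjusted p = 0.364) and 0.03 ± 0.17 in TAC_DMSO against sham (adjusted p = 0.943). No change on this probe under the drug was called. The array reads mRNA, and gives no measure of the enzyme's activity.

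The second Ehmt2 probe, ILMN_3147724, measured 8.02 and 8.16 in TAC_BIX, 7.76 and 7.58 in TAC_DMSO, and 7.92 and 8.01 in sham. On it the TAC_DMSO arrays were the lowest and the TAC_BIX arrays the highest. Its difference in TAC_BIX against TAC_DMSO was 0.42 ± 0.18 (95% interval 0.0011 to 0.84, adjusted p = 0.252 over the 19273 kept probes). In TAC_DMSO against sham it differed by -0.30, where the brightest probe gave 0.03; the probes' disagreement was 0.33 ± 0.18 (adjusted p = 0.345 over 5908 probe pairs) and was not called. The third probe, ILMN_2615204, annotated to another Ehmt2 transcript, lay between 4.47 and 5.07 and was detected on 3 arrays, none of them sham.

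Wiz, a zinc finger subunit of the Ehmt1-Ehmt2 complex, measured 5.90 and 5.79 in TAC_BIX, 5.66 and 5.53 in TAC_DMSO, and 6.62 and 5.94 in sham on ILMN_1221828. All 4 constricted arrays lay below both sham arrays, and the sham arrays were the farthest apart. The difference was -0.69 ± 0.24 in TAC_DMSO against sham (adjusted p = 0.156) and -0.43 ± 0.24 in TAC_BIX against sham (adjusted p = 0.295), neither of which was called. Both moved with the sham arrays: they were -0.35 and -0.098 without sham replicate 1, and -1.04 and -0.78 without sham replicate 2. A second probe to another annotated transcript, ILMN_3095005, gave -0.60 ± 0.24 and -0.66 ± 0.24 in the same comparisons (adjusted p = 0.191 and 0.121 over probes), so the pair had the same sign against sham. Between TAC_BIX and TAC_DMSO the pair had opposite signs, 0.25 and -0.06, and the disagreement was not called (adjusted p = 0.767).

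Zfp644, another zinc finger protein of that complex, measured 8.64 and 8.62 in TAC_BIX, 8.10 and 8.38 in TAC_DMSO, and 8.63 and 8.52 in sham on ILMN_2740222. The TAC_DMSO arrays were the lowest 2 of the 6, and TAC_BIX and sham overlapped. The difference was 0.39 ± 0.18 in TAC_BIX against TAC_DMSO (adjusted p = 0.272) and -0.33 ± 0.18 in TAC_DMSO against sham (adjusted p = 0.310). The second probe, ILMN_1257573, lay near the floor and was detected on 4 arrays; it gave 0.21 ± 0.26 and -0.29 ± 0.26 in these 2 comparisons.

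Setdb1, the trimethylase of retroelements, had 1 probe, detected on all 6 arrays. It measured 6.73 and 6.97 in TAC_BIX, 6.36 and 6.35 in TAC_DMSO, and 6.49 and 6.37 in sham. Both TAC_BIX arrays lay above the other 4. The difference was 0.49 ± 0.17 in TAC_BIX against TAC_DMSO (95% interval 0.09 to 0.90, adjusted p = 0.183) and 0.42 ± 0.17 in TAC_BIX against sham (adjusted p = 0.181), and neither was called. TAC_DMSO and sham differed by -0.07 ± 0.17.

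Cbx3 encodes HP1 gamma, the HP1 protein found in euchromatin as well as heterochromatin. Its brightest probe, ILMN_2629052, measured 8.70 and 9.30 in TAC_BIX, 8.70 and 8.84 in TAC_DMSO, and 6.86 and 7.46 in sham. All 4 constricted arrays were well above both sham arrays, and TAC_BIX and TAC_DMSO overlapped. The deposited signal intensities of this probe, before normalization, were 578 and 934 in TAC_BIX, 556 and 522 in TAC_DMSO, and 187 and 197 in sham. The mean intensity over all probes was also lower in sham, at 358 and 296. It was 425 and 439 in TAC_BIX, and 433 and 391 in TAC_DMSO. After normalization, the means of the Cbx3 probe were 9.0 ± 0.43 in TAC_BIX, 8.77 ± 0.10 in TAC_DMSO and 7.16 ± 0.42 in sham (SD, n = 2 each). In TAC_BIX against sham Cbx3 rose by 1.83 ± 0.27, or 3.56-fold (95% interval 1.20 to 2.47 on the log2 scale, adjusted p = 0.0218).

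In TAC_DMSO against sham the same probe differed by 1.61 ± 0.27, or 3.05-fold. This lay at the threshold: the adjusted p was 0.0544 over genes, and 0.0385 over the 19273 probes, where 1 of the 12 member probes was called and 1.53% of all probes were. That call over probes was lost in 10 of 16 alternatives, among them the authors' processed values (0.97, adjusted p = 0.0647), the replicate block (adjusted p = 0.0832) and the omission of any 1 array (adjusted p 0.0608 to 0.138). Over probes, 1 of the 12 was also called in TAC_BIX against sham (9.1% of all probes), and 0 of the 12 in TAC_BIX against TAC_DMSO (0.00519% of all probes). Between TAC_BIX and TAC_DMSO the Cbx3 difference was 0.22 ± 0.27 (95% interval -0.41 to 0.86, adjusted p = 0.695).

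The second Cbx3 probe did not follow the brightest one. ILMN_2516205, annotated to a cDNA clone in place of the RefSeq transcript, measured 6.55 and 7.16 in TAC_BIX, 6.81 and 7.13 in TAC_DMSO, and 6.80 and 7.23 in sham. The 3 groups overlapped on it, with a difference of -0.16 ± 0.26 in TAC_BIX against sham and -0.05 ± 0.26 in TAC_DMSO against sham. The third probe, ILMN_2847230, annotated to the same RefSeq transcript as the brightest, was detected on no array and gives no second reading. The brightest probe's difference exceeded that of ILMN_2516205 by 2.00 ± 0.18 in TAC_BIX against sham (adjusted p = 0.0130 over 5908 pairs) and by 1.66 ± 0.18 in TAC_DMSO against sham (adjusted p = 0.0204). With the mean of the 2 kept probes in place of the brightest, Cbx3 in TAC_BIX against sham gave 0.83 and was not called (adjusted p = 0.0949). RefSeq annotates 6 Cbx3 pseudogenes; probe sequences were not used here, so which transcripts the probes read is uncertain.

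**Figure D3:**
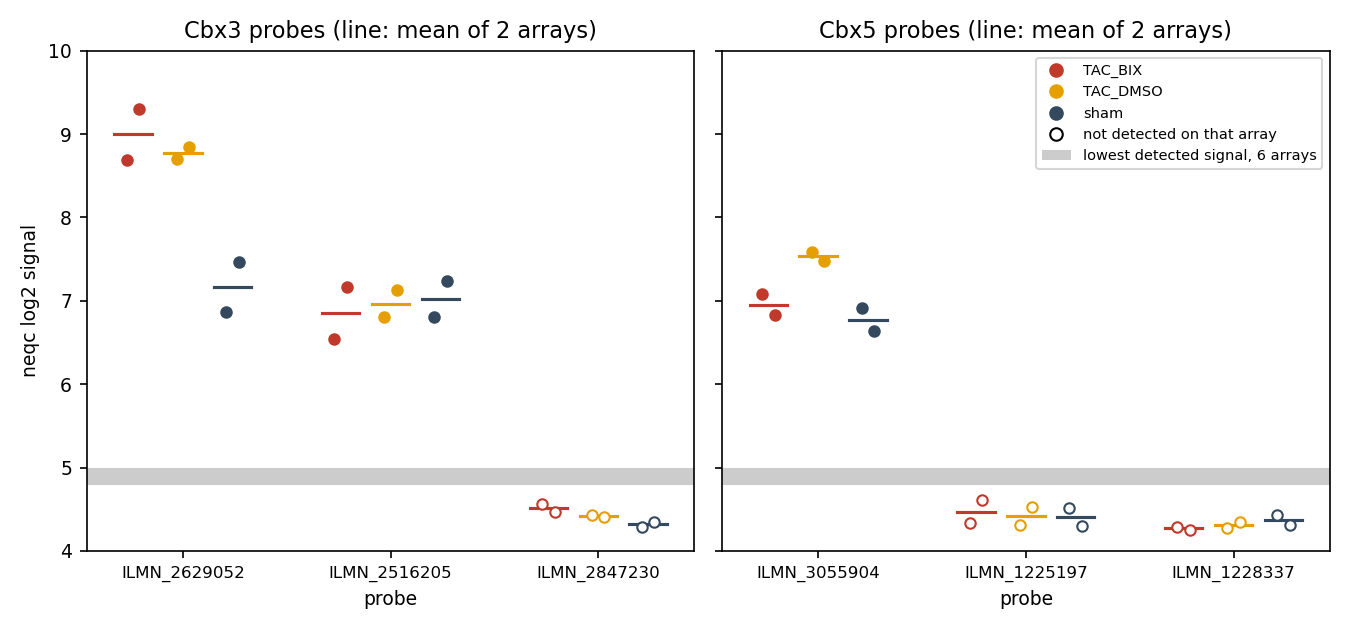
Normalized log2 signal of the 3 Cbx3 probes (left) and the 3 Cbx5 probes (right); points are arrays, lines are means of 2 arrays, open points were not detected and the grey band spans the lowest detected signals. On ILMN_2629052 of Cbx3 the TAC_BIX and TAC_DMSO arrays, between 8.70 and 9.30, lay above the sham arrays at 6.86 and 7.46, while the groups overlapped on ILMN_2516205.

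The Cbx3 call rested on few arrays. It was lost without sham replicate 1 (1.52, adjusted p = 0.0937), without sham replicate 2 (2.14, adjusted p = 0.0761) and without TAC_BIX replicate 2 (1.54, adjusted p = 0.177), with the lone array assumed to vary like the other groups. Markers of other cell types were read beside it. All 10 listed fibroblast markers were kept, with summed signals of 13970 and 21867 in TAC_BIX, 15670 and 9769 in TAC_DMSO, and 10328 and 10091 in sham. All 10 endothelial markers were kept, with summed signals of 4141 and 5243 in TAC_BIX, 3932 and 4628 in TAC_DMSO, and 3650 and 2969 in sham. Of 15 cycling-cell markers 12 were kept, with summed signals of 783 and 937 in TAC_BIX, 1338 and 720 in TAC_DMSO, and 417 and 859 in sham; Ccnb2 was not kept. For each of these 3 lists the summed signals of TAC_BIX and TAC_DMSO overlapped. By summed signal, the sham arrays lay below all constricted arrays for the endothelial list, and overlapped them for the fibroblast and cycling lists. The brightest markers weigh most in such a sum. By the mean log2 of the kept markers, sham lay below all constricted arrays for the fibroblast list as well. These means were 7.47 and 7.73 in sham, 8.32 and 9.14 in TAC_BIX, and 9.20 and 8.06 in TAC_DMSO. The cycling list overlapped by that measure too. Of 12 macrophage and leukocyte markers 9 were kept (Ptprc and Itgam were not, and Cd68 had no probe), with summed signals of 4881 and 7506 in TAC_BIX, 9909 and 6303 in TAC_DMSO, and 4792 and 5856 in sham. Of 8 smooth muscle and pericyte markers 7 were kept, with 5797 and 6225 in TAC_BIX, 6822 and 4841 in TAC_DMSO, and 4701 and 4939 in sham. The 4 kept erythroid markers of 9 summed to 7842 and 1802 in TAC_BIX, 12632 and 29189 in TAC_DMSO, and 6979 and 829 in sham. By summed signal, sham overlapped the constricted arrays on these 3 lists too. By mean log2, sham lay below all constricted arrays for the smooth muscle and pericyte list. These means were 6.86 and 6.56 in sham, 7.25 and 7.39 in TAC_BIX, and 7.21 and 7.12 in TAC_DMSO. The leukocyte and erythroid lists overlapped by mean log2 as well. The part of these cells, and of the lower detection rate in sham, in the Cbx3 difference was not tested.

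Cbx5 encodes HP1 alpha, the HP1 protein concentrated at pericentromeric heterochromatin. Its kept probe, ILMN_3055904, measured 7.08 and 6.83 in TAC_BIX, 7.59 and 7.48 in TAC_DMSO, and 6.91 and 6.63 in sham. The TAC_DMSO arrays lay above the other 4, and TAC_BIX and sham overlapped. The difference was 0.76 ± 0.19 in TAC_DMSO against sham (95% interval 0.32 to 1.20, adjusted p = 0.0894) and -0.58 ± 0.19 in TAC_BIX against TAC_DMSO (95% interval -1.02 to -0.14, adjusted p = 0.158). Neither passed the test, and these 2 differences share the TAC_DMSO arrays. TAC_BIX and sham differed by 0.18 ± 0.19 (adjusted p = 0.580). The other 2 probes, annotated to another Cbx5 transcript, were detected on no array, so no second reading of Cbx5 was available.

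**Figure D4:**
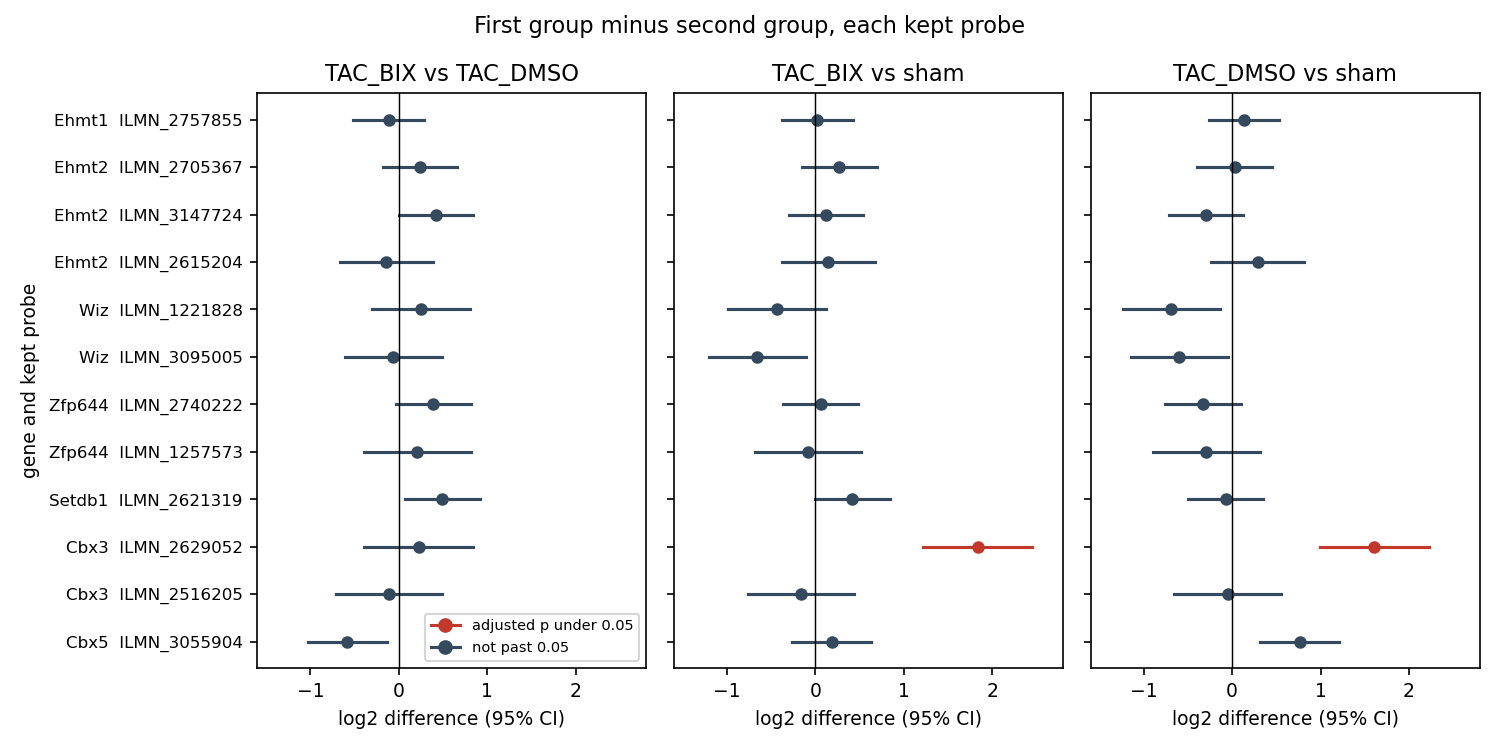
Differences of the 12 kept probes (points, log2 scale) with 95% intervals, as TAC_BIX minus TAC_DMSO (left), TAC_BIX minus sham (middle) and TAC_DMSO minus sham (right); red marks an adjusted p under 0.05 over the 19273 kept probes. ILMN_2629052 of Cbx3 was the 1 member probe called, at 1.83 in TAC_BIX against sham and 1.61 in TAC_DMSO against sham, and the intervals of ILMN_2516205 of the same gene include 0.

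Across the members, 5 pairs of kept probes of 1 gene could be compared. They had opposite signs in 3 of 5 pairs in TAC_BIX against TAC_DMSO, 2 in TAC_BIX against sham and 2 in TAC_DMSO against sham, where 31%, 35.3% and 35.4% of all 5908 pairs did. The disagreement was called for 0, 1 and 1 pairs, in each case that of Cbx3, against 0%, 5.72% and 1.44% of all pairs. Over the 6 arrays, Ehmt2 and Setdb1 correlated with r = 0.95, Wiz and Cbx3 with r = -0.83, and Zfp644 and Cbx5 with r = -0.79; these describe 6 arrays in 3 groups, whose group means the genes share.

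The genes whose pattern over the 6 arrays was most like a member's were found by Pearson's r, as a description. For Cbx3 they included Ezh1 (r = 0.994) and Zfp24 (0.994), which differed by 0.75 and 1.36 in TAC_BIX against sham. For Cbx5 they were Gm5414, Dcpp1 and Pard6a (0.987 to 0.981). For Ehmt2 they were Snx18, Ywhah and Pon2 (0.995 to 0.986), and for Setdb1 they were Pcbp1, Cwf19l1 and Znrf2 (0.996 to 0.994). For Wiz they were Gpn3, Acaa1a and Zswim9 (0.997 to 0.993), and for Zfp644 they were Slc25a11, Tob2 and Ogfod1 (0.993 to 0.992).

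The wider pathway was read through 65 listed genes, of which 46 were tested. In TAC_BIX against TAC_DMSO 0 rose and 0 fell. In TAC_BIX against sham 1 was called higher and 0 fell, or 2.17% of the 46, beside 6.65% of all genes; that gene was not detected in sham and passed the filter through the constricted arrays, so the count supports nothing about the list. The same was 0 and 0 for TAC_DMSO against sham. The counts at an unadjusted p under 0.05 given for each list are to be read beside 19.8%, 26.4% and 22.4% of all genes in TAC_BIX against TAC_DMSO, TAC_BIX against sham and TAC_DMSO against sham.

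Of the H3K9 demethylases, which remove the mark, 10 of 12 were tested and 0 were called in each of the 3 comparisons (limma; 0, 0 and 3 had an unadjusted p under 0.05 in TAC_BIX against TAC_DMSO, TAC_BIX against sham and TAC_DMSO against sham). In TAC_BIX against TAC_DMSO 9 of the 10 were above 0, with a median of 0.32 beside 0.03 over all genes. Among the 9, Jmjd1c (0.36) was detected on the TAC_BIX arrays alone and passed the filter only through them. Phf8 (0.33) was detected on no TAC_DMSO array. The share of all genes above 0 was not counted, so the 9 of 10 supports nothing about the list. Hr, a demethylase of the KDM3 group, measured 9.34 and 9.06 in TAC_BIX against 8.73 and 8.84 in TAC_DMSO, a difference of 0.41 ± 0.20 (adjusted p = 0.295). Kdm4b, which acts on trimethylated lysine, differed by 0.33 ± 0.17 (adjusted p = 0.330). In TAC_DMSO against sham 8 of the 10 were below 0, with a median of -0.15 beside -0.01 over all genes. The share of all genes below 0 was not counted either. Kdm7a differed by -0.60 ± 0.20 (adjusted p = 0.144), with 1 other kept probe of opposite sign. Kdm3a, a demethylase of the mono- and dimethylated lysine, differed by -0.55 ± 0.21 (adjusted p = 0.184) and Phf2 by -0.42 ± 0.16 (adjusted p = 0.190).

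Of 9 other H3K9 methyltransferases and cofactors 7 were tested and 0 called in each comparison, and 0 had an unadjusted p under 0.05. Trim28, the corepressor that brings Setdb1 to its targets, measured 9.63 and 9.50 in TAC_BIX, 9.16 and 9.26 in TAC_DMSO, and 9.16 and 9.47 in sham. It differed by 0.36 ± 0.18 in TAC_BIX against TAC_DMSO (adjusted p = 0.325). Prdm2, a methyltransferase, differed by 0.36 ± 0.18 in the same comparison (adjusted p = 0.317). Atf7ip, a partner of Setdb1, differed by 0.37 ± 0.20 in TAC_DMSO against sham (adjusted p = 0.319), with a second kept probe of opposite sign.

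Of 31 HP1 partners and heterochromatin genes 21 were tested, and 1 was called; 1, 6 and 4 had an unadjusted p under 0.05, with the comparisons in the order above. Chaf1a, the HP1-binding large subunit of the chromatin assembly factor CAF-1, measured 5.64 and 5.61 in TAC_BIX, 5.72 and 5.60 in TAC_DMSO, and 4.71 and 4.75 in sham. It was detected on all 4 constricted arrays and on neither sham array. It therefore passed the detection filter only through the constricted arrays, and its sham level is a bound. In TAC_BIX against sham it was at least 1.57-fold higher. The fitted difference was 0.89 ± 0.16 (adjusted p = 0.0276) in TAC_BIX and 0.93 ± 0.16 (adjusted p = 0.0564) in TAC_DMSO, each against a probe not above background in sham. The Chaf1a call was lost without either sham array (adjusted p = 0.109 without replicate 1 and 0.108 without replicate 2), without TAC_BIX replicate 1 (0.0874) and without TAC_BIX replicate 2 (0.197), and the difference was 0.16 in the authors' processed values (adjusted p = 0.143), 0.26 without background correction (0.106) and 0.46 with an offset of 50 (0.0561). Its replicate-block adjusted p was 0.0583. Lbr, the lamin B receptor that tethers HP1 to the nuclear envelope, measured 8.93 and 8.92 in TAC_BIX, 8.87 and 8.78 in TAC_DMSO, and 9.33 and 9.55 in sham. All 4 constricted arrays lay below sham, with -0.52 ± 0.17 in TAC_BIX (adjusted p = 0.111) and -0.62 ± 0.17 in TAC_DMSO (adjusted p = 0.107). Mbd1, a reader of methylated DNA, differed from sham by -0.69 ± 0.17 in TAC_DMSO (adjusted p = 0.0894), and its other 2 kept probes had the same sign.

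Of 13 zinc finger genes and recruiters of the Ehmt1-Ehmt2 complex 8 were tested and 0 called in each comparison, with 3, 1 and 2 at an unadjusted p under 0.05. E2f6, Pcgf6, Max and L3mbtl2 encode subunits of a variant Polycomb complex that has been found together with Ehmt1 and Ehmt2. Pcgf6 measured 7.36 and 7.58 in TAC_BIX, 6.78 and 7.06 in TAC_DMSO, and 6.97 and 6.80 in sham, a difference of 0.55 ± 0.19 against TAC_DMSO (adjusted p = 0.172) and 0.58 ± 0.19 against sham (adjusted p = 0.106). E2f6 differed by 0.53 ± 0.18 in TAC_BIX against TAC_DMSO (adjusted p = 0.172), with 4 of its 5 other kept probes of the same sign. L3mbtl2 differed by -0.97 ± 0.26 in TAC_DMSO against sham (adjusted p = 0.101). None of these passed the test.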

How the data were processed

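Total RNA, extracted with Trizol and cleaned on RNeasy columns, was amplified to biotin-labelled cRNA and hybridised to 6 one-colour Illumina MouseWG-6 v2 arrays, per the labels' protocols. GenomeStudio 2011.1, lumi and limma were used, per the submitters' processing notes; no source used here gives their settings. The authors deposited a table of bead signal intensities, not normalized between arrays, with a detection p-value deposited beside each intensity, and a second table of processed log2 values, whose normalization the deposited files do not state.

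The intensities were background corrected from the detection p-values, given an offset of 16, quantile normalized and set to log2 by the neqc function (limma 3.58.1, R 4.3.3). A probe was kept where its detection p-value was below 0.05 on 2 or more arrays (19273 of 45281), and the brightest kept probe stood for a gene. Of all probes, 34885 had 1 gene in the platform annotation, 18 several and 10378 none. All 6 arrays entered 1 linear model of group means (lmFit, eBayes), with two-sided tests adjusted by Benjamini-Hochberg over 10538 genes, and likewise over probes and over the differences between probes of a gene. "At least" folds set the higher group against the lowest detected signal. The alternatives were the authors' values, no background correction, an offset of 50, median scaling, no or a stricter filter, the mean of kept probes, a trended robust prior, 4 arrays only, the replicate number as a block, and leaving out each array.

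The members and lists were chosen with earlier results of these data known. Named were all members, the 4 genes of each list with the smallest p in each comparison or a subset of them, every called one, and the 3 genes most like each member, of which 1 is not reported here.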

Additional observations from a re-analysis of the deposited data

How the results depend on the processing

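The number of arrays and, for Ehmt1, Suv39h2 and Chaf1a, the small distance from background limit these results. Across all alternatives 1460 values stayed the same, 36 lost and 30 gained a call, 37 changed sign and 66 moved. A tested difference stayed the same where it kept its direction and its side of the threshold. A count stayed the same where it was equal or close to its main value, and moved otherwise. Cbx3 in TAC_BIX against sham was above 0 in all 16 alternatives (0.83 to 2.53, adjusted p 1.75e-05 to 0.177). The count of member genes called there (main value 1, with 701 of all genes) was 5 with median scaling and 0 with the mean of kept probes. Of all genes 3767 and 629 were called in those settings. The Cbx3 call was also lost without some single arrays, as given above. In the main values 4 members did not overlap, and 4 to 7 over the alternatives. The 7 came without sham replicate 1. A lone sham array overlaps less easily, and the share of all genes was not counted there. In TAC_BIX against TAC_DMSO 0 members were called in all alternatives run. Member probes called in TAC_BIX against sham (main value 1) numbered 6 with median scaling and 0 with no detection filter, and 0 to 1 without each replicate. For probes and probe pairs, the shares over all were not counted in the alternatives. In TAC_DMSO against sham, member genes called (main value 0, with 43 of all genes) numbered 2 with median scaling, where 952 of all genes were called. They numbered 1 with no background correction (284 of all genes), an offset of 50 (275), detection on all 6 arrays (134), or a trended robust prior (426). Member probes called there (main value 1) numbered 2 with median scaling and 0 with the authors' values, no detection filter, only 4 arrays, the replicate block, or without any 1 array (0 to 0). Probe pairs that differed in response (main value 2, both of Cbx3) numbered 3 with no detection filter, 1 with only 4 arrays, 1 with the replicate block, and 0 to 1 without each array.

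Median scaling shifted the median of all genes to 0.31 in TAC_DMSO against sham, 0.23 in TAC_BIX against TAC_DMSO and 0.53 in TAC_BIX against sham. In the main values it was -0.01, 0.03 and -0.0036. With median scaling 3638 genes were called higher and 129 lower in TAC_BIX against sham (main 289 and 412). In TAC_DMSO against sham these were 928 and 24 (main 22 and 21). Relative to the shifted medians Cbx3 stood at 1.99 in TAC_BIX against sham and 1.72 in TAC_DMSO against sham, and Ehmt2 at 0.45 and 0.13. Sign changes under median scaling, before the shift is taken off, gave 0.075 for Zfp644, 0.30 for Setdb1, 0.11 for Ehmt2 probe ILMN_3147724, 0.36 for Cbx3 probe ILMN_2516205, 0.00018 for Phf2, 0.31 for Prdm2 and 0.24 for E2f6 in TAC_DMSO against sham. They gave 0.17 for Cbx3 probe ILMN_2516205 and 0.070 for Wiz probe ILMN_3095005 in TAC_BIX against TAC_DMSO. In TAC_BIX against sham they gave 0.15 for Wiz, 0.54 for Cbx3 probe ILMN_2516205, 0.23 for Zfp644 probe ILMN_1257573, 0.28 for Kdm4c, 0.38 for Phf2, 0.17 for Lbr and 0.072 for L3mbtl2. With the mean of kept probes, Atf7ip was -0.032 in TAC_DMSO against sham and Zfp644 -0.013 in TAC_BIX against sham, which reflects opposite signs of their probes.

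Leaving out 1 array changed the sign of small differences. In TAC_DMSO against sham the ranges were -0.012 to 0.069 for Ehmt2, -0.27 to 0.17 for Cbx3 probe ILMN_2516205, -0.27 to 0.054 for Prdm2 and -0.61 to 0.025 for Ctbp2. In TAC_BIX against TAC_DMSO they were -0.079 to 0.52 for Cbx3, -0.35 to 0.071 for Ehmt2 probe ILMN_2615204, -0.42 to 0.19 for Cbx3 probe ILMN_2516205, -0.31 to 0.22 for Wiz probe ILMN_3095005 and -0.10 to 0.49 for Zfp644 probe ILMN_1257573. In TAC_BIX against sham they were -0.012 to 0.051 for Ehmt1, -0.069 to 0.36 for Ehmt2 probe ILMN_2615204, -0.47 to 0.14 for Cbx3 probe ILMN_2516205 and -0.39 to 0.21 for Zfp644 probe ILMN_1257573. The cause was not tested.

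Deviations of same-numbered arrays correlated with r = -0.16 (TAC_BIX and TAC_DMSO), 0.09 (TAC_BIX and sham) and -0.24 (TAC_DMSO and sham). With 2 arrays per group, a low r cannot show whether the replicate numbers mark pairs. With the number as a block Cbx3 in TAC_BIX against sham had an adjusted p of 0.0435, in TAC_DMSO against sham 0.115, and the Cbx3 probe pair 0.0346 and 0.0723; genes called fell to 253 in TAC_BIX against sham and 0 in TAC_DMSO against sham, against 701 and 43 without it. Over all settings the genes called ranged from 0 to 709 in TAC_BIX against TAC_DMSO, 0 to 3767 in TAC_BIX against sham and 0 to 952 in TAC_DMSO against sham.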

Other observations

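Each HP1 gene measured here starts beside a gene of an RNA-binding protein that runs the other way; these neighbours were chosen after values were seen. On GRCm38.p6, the annotated edges of Hnrnpa2b1 and Cbx3 lie 106 bases apart, and those of Hnrnpa1 and Cbx5 lie 39 bases apart. The Cbx5 window shown above therefore reaches into Hnrnpa1. Both neighbours encode hnRNP proteins that bind pre-mRNA. Hnrnpa2b1 had 2 kept probes of 5. The brighter one, ILMN_2615855, averaged 9.99 ± 0.47 in TAC_BIX, 9.79 ± 0.18 in TAC_DMSO and 8.83 ± 0.15 in sham (SD, n = 2 each). It differed by 1.16 ± 0.25 in TAC_BIX against sham (limma, adjusted p = 0.0384 over genes) and by 0.96 ± 0.25 in TAC_DMSO against sham (adjusted p = 0.0967). The other kept probe, ILMN_2771074, averaged 6.18 ± 0.03 in TAC_BIX, 6.95 ± 0.47 in TAC_DMSO and 6.93 ± 0.12 in sham, with a difference of -0.75 ± 0.24 in TAC_BIX against sham (adjusted p = 0.0872 over probes). So Hnrnpa2b1 was called in TAC_BIX against sham on its brightest probe, where 6.65% of all genes were called. Its 2 kept probes had opposite signs there, as did 35.3% of all pairs.

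Hnrnpa1 had 3 kept probes, of which 1 was called in TAC_BIX against sham, where 9.1% of all probes were. That probe, ILMN_3096701, averaged 8.70 ± 0.16 in TAC_BIX, 8.71 ± 0.21 in TAC_DMSO and 7.80 ± 0.15 in sham, a difference of 0.90 ± 0.20 in TAC_BIX against sham (adjusted p = 0.0326 over probes). The brightest probe, ILMN_1244536, differed by -0.34 ± 0.18 in the same comparison (adjusted p = 0.239 over genes).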
